A study of Arabidopsis thaliana with 14 samples.

Results

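The microRNA (miRNA) genes of Arabidopsis thaliana were examined as binding targets of the type-B response regulators (B-ARRs), the transcription factors at the end of the cytokinin signaling pathway. The 326 members are all nuclear genes that the TAIR10 annotation names as miRNA precursors (MIR followed by a number), out of 37899 annotated nuclear genes and pseudogenes. They fall into 215 numbered families, most of them with a single member. The annotated feature is the hairpin that holds the mature miRNA, with a median length of 144.5 bp (59 to 689 bp), and not the longer primary transcript from which the hairpin is cut.

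Binding was measured by chromatin immunoprecipitation and sequencing (ChIP-seq) in whole seedlings aged 3 days, with an antibody against the fluorescent tag. ARR1 (splice form ARR1.2), ARR10, ARR12 and ARR14 carried a C-terminal Ypet tag inside a large genomic clone that was put back into the wild-type Columbia strain, so untagged copies of the same genes were present in every line and the transgene adds a copy of the DNA around the tagged gene. ARR1 was profiled in dark-grown (etiolated) seedlings after 4 h of DMSO (ARR1 etiolated mock), and under long days after 4 h of DMSO (ARR1 mock), after 4 h of 10 µM 6-benzylaminopurine, a cytokinin (ARR1 6-BA), and after 3 days of growth on 10 µM 6-BA (ARR1 6-BA 3 d). ARR10 and ARR12 were profiled under long days after 4 h of DMSO or of 10 µM 6-BA, and ARR14 after 3 days of 10 µM 6-BA. The last list came from ARR1∆DDK, which lacks the receiver domain that holds ARR1 inactive. This protein was fused to YFP and to the steroid-binding part of the glucocorticoid receptor and was released by 4 h of 10 µM dexamethasone (ARR1∆DDK Dex). The paper describes the receptor fusion as driven by a cauliflower mosaic virus promoter, whereas the Ypet-tagged genes kept their own nearby regulatory DNA. The ARR1∆DDK Dex list thus differs from the other ARR1 lists in more than the receiver domain. It was identified by its sample title and treatment, because the line label of that sample names the full ARR1 line.

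Each condition had 1 deposited peak list, which combines at least 2 biological replicates, so no spread between replicates can be given and no comparison between lists was tested. The peak score is the −log10 of the p-value that the peak caller gave against input DNA. Peaks with a score of at least 16, the cutoff of the study, were kept, and a gene counted as bound where it held a summit, or had one no farther than 1.5 kb away on either side. The 10 lists held between 73 (ARR1 mock) and 9913 (ARR14 6-BA 3 d) such peaks. They also end at different scores. The lowest deposited score was 20.6 for ARR1 etiolated mock, 28.3 for ARR14 6-BA 3 d and 31.2 for ARR1∆DDK Dex, so weaker peaks can enter the other lists only. Sequencing depth is unknown, and 95% Wilson intervals on shares cover counting error only. The pair of ARR12 lists is named by the sample labels ("labelled mock", "labelled 6-BA"), because the tables of the study match them the other way round, and results that turn on them are given both ways.

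MiRNAs are short RNAs that guide the silencing of messenger RNAs with a matching sequence. They are cut in the nucleus from a hairpin in a primary transcript made by RNA polymerase II, and in plants most well-studied miRNAs act on transcription factors and hormone receptors that set developmental timing, leaf shape and meristem activity. Cytokinin acts in the same processes, through a relay of phosphate from membrane receptors to the B-ARRs, which bind DNA around an AGAT core and activate transcription.

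The mature sequences below, each read from the TAIR10.1 genome at the position that RefSeq annotates, belong to the members on which the results turn. They are written 5′ to 3′ with the seed, bases 2 to 8, in capitals, as a label by which members are also grouped below. MIR156a and MIR156c make the same mature miRNA. The first group steers the change from the juvenile to the adult plant and the growth of leaves and organs, the next acts on auxin response, miRNA activity and nutrients, and the last 4 have no widely shared family. For MIR404, MIR414 and MIR5651 the annotation notes name no guide sequence. Whether each annotated member makes a mature miRNA was not tested.
miR156c-5p: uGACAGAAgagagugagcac
miR156h: uGACAGAAgaaagagagcac
miR159a: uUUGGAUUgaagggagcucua
miR159b-3p: uUUGGAUUgaagggagcucuu
miR166a-3p: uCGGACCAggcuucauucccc
miR164a: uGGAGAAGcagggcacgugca
miR396b-5p: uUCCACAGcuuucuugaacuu
miR167a-5p: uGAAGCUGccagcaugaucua
miR393a-5p: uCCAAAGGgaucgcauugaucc
miR168a-5p: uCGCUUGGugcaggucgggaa
miR398b-3p: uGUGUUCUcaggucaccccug
miR827: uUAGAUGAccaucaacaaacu
miR163: uUGAAGAGgacuuggaacuucgau
miR404: aUUAACGCuggcgguugcggcagc
miR414: uCAUCUUCaucaucaucguca
miR5651: uUGUGCGGuucaaauaguaac

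MiRNA genes were bound in every list, at a share below that of all genes. In ARR1 6-BA, 34 of 326 members were bound, which is 10.4% (interval 7.56% to 14.2%), against 17.5% of all nuclear genes and 20.4% of protein-coding genes. After 3 days of 6-BA, ARR1 was found at 76 members (23.3%, 19.1% to 28.2%) against 34.3% of all genes, and ARR14 at 91 members (27.9%, 23.3% to 33.0%) against 37.9%. ARR10 was found at 29 members in mock (8.90%, background 16.3%) and at 48 after 6-BA (14.7%, background 21.4%). The list labelled ARR12 mock held 41 members (12.6%, background 21.1%) and the list labelled ARR12 6-BA held 5 (1.53%, background 2.87%). ARR1∆DDK Dex held 21 members (6.44%, background 12.4%), ARR1 etiolated mock 9 (2.76%, background 5.65%) and ARR1 mock a single member (0.307%, background 0.361%). The member share was the lower value in all 10 lists, and in 8 of them the background lay above the upper end of the interval, the exceptions being ARR1 mock and the list labelled ARR12 6-BA.

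**Figure D1:**
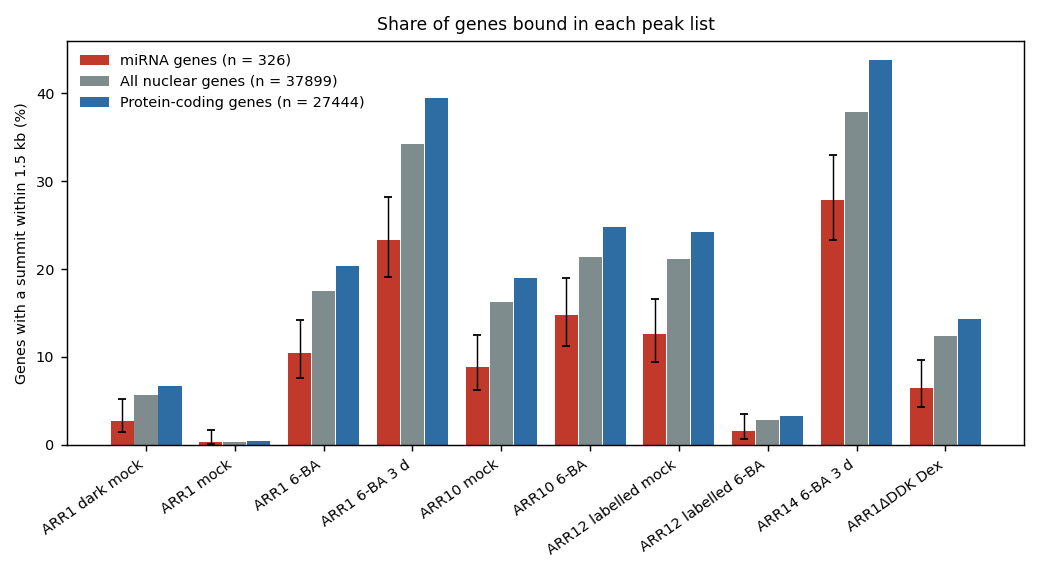
Percent of genes with a peak summit of score 16 or more inside them or within 1.5 kb, for each peak list on the x axis. Red bars are the 326 miRNA genes with 95% Wilson intervals, grey bars all 37899 nuclear genes and blue bars the 27444 protein-coding genes. The red bar is the lowest of the 3 in every list, from 0.307% in ARR1 mock to 27.9% in ARR14 6-BA 3 d.

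Gene length differs between these groups, and a longer gene offers more room for a summit: the median protein-coding gene spans 2078 bp. When each gene was reduced to a window of 1.5 kb on either side of its annotated start, 10.4% of members were bound in ARR1 6-BA against 12.6% of all genes, 22.4% against 26.2% in ARR1 6-BA 3 d, 14.4% against 15.7% in ARR10 6-BA and 27.0% against 29.6% in ARR14 6-BA 3 d. The members remained the lower in these 4 lists, by a smaller margin. They were also lower in ARR1 etiolated mock (2.76% against 4.21%), ARR10 mock (8.59% against 11.6%) and ARR1∆DDK Dex (6.44% against 9.33%). The list labelled ARR12 mock had 12.0% against 15.6%, and the list labelled ARR12 6-BA 1.53% against 1.99%. In ARR1 6-BA, ARR1 etiolated mock, labelled ARR12 6-BA and ARR1∆DDK Dex the count of members was unchanged. Its interval there holds the start-window share of all genes. In ARR1 6-BA 3 d, both ARR10 lists, labelled ARR12 mock and ARR14 6-BA 3 d the count was slightly lower and no new interval was computed. The intervals of the gene-based counts hold the start-window share of all genes in these lists too. With equal windows the lower share of members was thus not set apart from that of all genes by these intervals. In ARR1 mock the order turned, with 0.307% of members against 0.222% of all genes, although that share is 1 gene. Genes of other short RNAs gave a second comparison. Over all 10 lists, 112 members (34.4%, 29.4% to 39.7%) were bound in at least 1 list, against 48.0% of 625 transfer RNA genes, 49.1% of 287 small nucleolar RNA genes, 47.2% of 3480 long non-coding RNA genes, 8.35% of 3917 pseudogenes and 48.0% of all genes. Single lists did not all keep this order. Transfer RNA genes lay below the members in ARR1 etiolated mock (1.92% against 2.76%), ARR1 mock, ARR10 6-BA (12.6% against 14.7%) and ARR14 6-BA 3 d (27.8% against 27.9%). They lay above in the other lists. Small nucleolar RNA genes lay below in ARR1 etiolated mock and labelled ARR12 6-BA only. At 6 or more lists transfer RNA genes had 6.40% against 7.36% of members.

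Bound members stood near the middle of the longer lists by score. Placed among all bound genes of the same list by best score, with 0% as the top, the median member stood at 51.9% in ARR1 6-BA, 46.2% in ARR1 6-BA 3 d, 56.3% in ARR10 mock, 55.8% in ARR10 6-BA, 48.1% in the list labelled ARR12 mock, 52.9% in ARR14 6-BA 3 d and 56.9% in ARR1∆DDK Dex. In the lists with fewer than 10 bound members it stood nearer the top, at 34.9% in ARR1 etiolated mock, 36.8% in the list labelled ARR12 6-BA and 28.8% for the single member of ARR1 mock. The top 10% of a list held 17.1% of the bound members in the longer ARR12 list (7 of 41), 14.7% in ARR1 6-BA (5 of 34), 13.8% in ARR10 mock (4 of 29), 8.33% in ARR10 6-BA (4 of 48), 7.69% in ARR14 6-BA 3 d (7 of 91), 6.58% in ARR1 6-BA 3 d (5 of 76) and 4.76% in ARR1∆DDK Dex (1 of 21). The single highest members reached the top of their lists: MIR404 stood at 0.487% in the longer ARR12 list, MIR159b at 0.825% in ARR14 6-BA 3 d and MIR5651 at 0.913% in ARR1 6-BA.

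Binding was spread unevenly over the members. Of the 326, 214 were bound in no list, 30 in a single list, 24 in at least 6 lists (7.36%, against 11.7% of all genes) and 0 in all 10. MIR156h and MIR414 were bound in 9 lists, and MIR168a, MIR404, MIR8167f and MIR8182 in 8. MIR156c, MIR163 and MIR5651 followed with 7. The other 15 of these 24 members were each bound in 6 lists, most often the 6-BA lists of ARR1 and ARR10, ARR10 mock, the list labelled ARR12 mock and ARR14 6-BA 3 d.

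**Figure D2:**
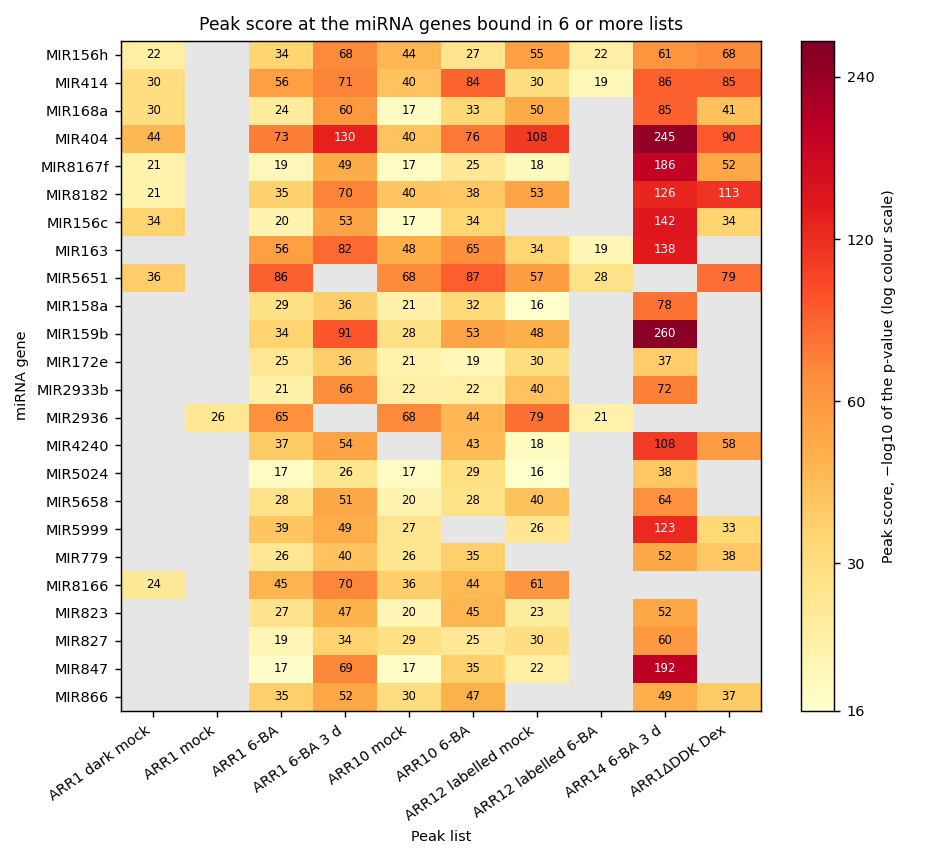
Peak score (−log10 of the p-value, log colour scale) of the best peak at each of the 24 miRNA genes bound in 6 or more of the 10 lists, with the rounded score in each cell; grey cells have no peak of score 16 or more within 1.5 kb. The ARR1 mock column holds only MIR2936, and the highest scores are those of MIR159b and MIR404 in ARR14 6-BA 3 d. A score also reflects library depth, which is unknown, so columns are not on one scale.

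Since the mature product of the family sets what it acts on, the members were grouped by role. Members of the phase change families, MIR156 and MIR157, which restrain the SPL transcription factors of the adult phase, and MIR172, which restrains AP2-like factors, were bound in at least 1 list at 10 of 19 loci (52.6%, interval 31.7% to 72.7%). The same share over all genes is 48.0%, and it lies inside this interval. MIR156 was the family with the most bound members: 7 of its 10 genes were bound in ARR14 6-BA 3 d, 4 in ARR1 6-BA 3 d, 3 in ARR10 6-BA and 1 or 2 in 6 of the other lists. MIR156c, on chromosome 4 at 15415418-15415521, had scores of 34.4 in ARR1 etiolated mock, 20.3 in ARR1 6-BA, 52.9 in ARR1 6-BA 3 d, 17.0 in ARR10 mock, 33.8 in ARR10 6-BA, 142 in ARR14 6-BA 3 d and 34.1 in ARR1∆DDK Dex. It was thus bound in 7 lists, and MIR156c was the annotated gene nearest to the summit in each of them. MIR156c lies within 50 kb of ARR10, the gene tagged in the ARR10 line. Of the 7 lists, 5 come from lines in which ARR10 was not tagged, and the part of the added DNA copy in the other two was not tested. MIR156a, within 50 kb of ARR12, scored 18.7 in the list labelled ARR12 mock, 35.1 in ARR1 6-BA 3 d and 45.4 in ARR14 6-BA 3 d. The part of the added copy in the ARR12 value was not tested, and the other two lists come from lines in which ARR12 was not tagged.

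MIR156h was bound in 9 lists, with scores of 21.9 in ARR1 etiolated mock, 34.0 in ARR1 6-BA, 67.8 in ARR1 6-BA 3 d, 44.4 in ARR10 mock, 26.6 in ARR10 6-BA, 54.8 in the list labelled ARR12 mock, 21.7 in the list labelled ARR12 6-BA, 61.3 in ARR14 6-BA 3 d and 67.6 in ARR1∆DDK Dex. Its summits lay between 617 and 690 bp upstream of the hairpin, but in all 9 lists another gene, the protein-coding AT5G55840, was nearer to the summit. The remaining members of the family were found mainly after 3 days of 6-BA: MIR156b (53.0) and MIR156g (58.8) in ARR14 6-BA 3 d alone, and MIR156j in ARR14 6-BA 3 d (104) and ARR1 6-BA 3 d (16.5). MIR156j lies inside SPL9, itself a well-known target of miR156, so a peak there cannot be assigned to one or the other. MIR172e was bound in 6 lists with scores from 18.7 to 36.9, and its summits lay 214 to 544 bp downstream of the hairpin start.

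Families that shape leaves and organs were bound at 15 of 20 loci (75.0%, interval 53.1% to 88.8%, beside 48.0% of all genes), a count that includes a pair of neighbouring genes with shared peaks, described below. In ARR1 6-BA 3 d 55% were bound (beside 34.3% of all genes), and in ARR14 6-BA 3 d 55% (beside 37.9%). The share was also higher in ARR10 6-BA (30% beside 21.4%) and ARR1 6-BA (20% beside 17.5%). It was below that of all genes in the other lists, with 10% beside 16.3% in ARR10 mock and 0 loci in ARR1∆DDK Dex (beside 12.4%). At 6 or more lists the count was 1 of 20, beside 11.7% of all genes. All 3 members of MIR159, which restrains the MYB33 and MYB65 factors, were bound. MIR159b reached the highest score of any member, 260 in ARR14 6-BA 3 d, after 90.9 in ARR1 6-BA 3 d, 52.6 in ARR10 6-BA, 48.3 in the list labelled ARR12 mock, 34.4 in ARR1 6-BA and 28.5 in ARR10 mock. Those summits lay 1133 to 1293 bp upstream of the hairpin, where the long non-coding RNA gene AT1G05373 was nearer. MIR159a was the nearest gene to its own peaks, with scores of 66.0 in ARR1 6-BA 3 d, 215 in ARR14 6-BA 3 d, 19.7 in ARR10 6-BA and 26.9 in the list labelled ARR12 mock.

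In the MIR166 family, which restrains the HD-ZIP III factors of leaf polarity and the meristem, 4 of 7 members were bound, each of them in both 3-day lists. MIR166a had scores of 47.6 in ARR1 6-BA 3 d, 69.0 in ARR14 6-BA 3 d, 17.8 in ARR10 6-BA and 16.1 in the list labelled ARR12 mock, and MIR166b had 32.5 and 69.5 in the 3-day lists of ARR1 and ARR14. MIR166c and MIR166d stand close together and share their best peak in each of the 3 lists that hold them, so they are not separate observations. The 3 members of MIR164, which marks organ boundaries through the CUC genes, were bound with scores from 16.8 to 84.6. MIR396b, which restrains the growth-regulating factors (GRFs), was bound in 4 lists with scores up to 50.3.

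Auxin-related families were bound at 8 of 11 loci (72.7%, interval 43.4% to 90.3%, beside 48.0% of all genes). Their share was above that of all genes in ARR14 6-BA 3 d (54.5% beside 37.9%), ARR1 6-BA 3 d (36.4% beside 34.3%) and ARR10 6-BA (27.3% beside 21.4%). In the other lists it was below, with 9.09% beside 17.5% in ARR1 6-BA and 0 loci in ARR1∆DDK Dex (beside 12.4%). At 6 or more lists the count was 0 of 11. MIR167a, whose product acts on the auxin response factors ARF6 and ARF8, scored 18.2 in ARR1 6-BA, 50.3 in ARR1 6-BA 3 d, 21.2 in ARR10 mock, 23.4 in ARR10 6-BA and 92.3 in ARR14 6-BA 3 d, always with MIR167a as the nearest gene and with summits within 44 bp of each other. MIR393a and MIR393b, which act on the auxin receptors TIR1 and AFB2, were bound in ARR10 6-BA alone, at scores of 23.0 and 32.4. Among the feedback genes of the miRNA pathway itself 3 of 5 were bound (interval 23.1% to 88.2%, which holds the background). MIR168a, whose product acts on AGO1, the protein that loads miRNAs, was bound in 8 lists with scores of 29.6 in ARR1 etiolated mock, 23.7 in ARR1 6-BA, 60.3 in ARR1 6-BA 3 d, 17.2 in ARR10 mock, 32.6 in ARR10 6-BA, 49.6 in the list labelled ARR12 mock, 85.5 in ARR14 6-BA 3 d and 40.6 in ARR1∆DDK Dex. MIR168a was the nearest gene in all 8.

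Nutrient families were bound at 14 of 36 loci (38.9%, interval 24.8% to 55.1%, beside 48.0% of all genes). All 3 members of MIR398, which acts on copper-containing superoxide dismutases, were bound in both 3-day lists, with scores from 22.4 to 34.3 in ARR1 6-BA 3 d and from 37.5 to 41.0 in ARR14 6-BA 3 d, and no MIR398 member was the gene nearest to its best summit. MIR827, which acts on the phosphate regulator NLA, was bound in 6 lists at scores from 19.3 to 59.7, always with AT3G59880 nearer. MIR169, the largest family, which acts on NF-YA factors, was bound at 5 of 14 loci, at most 3 in 1 list, and 2 of the 5, MIR169m and MIR169n, share 1 peak. The 6 MIR395 genes of sulfate supply had 0 bound members in the 10 lists. Among genes of defence and secondary metabolism 5 of 8 were bound (interval 30.6% to 86.3%, which holds the background). MIR163, whose product acts on small-molecule methyltransferases, had scores of 55.9 in ARR1 6-BA, 81.7 in ARR1 6-BA 3 d, 48.0 in ARR10 mock, 64.9 in ARR10 6-BA, 33.8 in the list labelled ARR12 mock, 19.5 in the list labelled ARR12 6-BA and 138 in ARR14 6-BA 3 d, and MIR163 was the nearest gene in all 7.

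**Figure D3:**
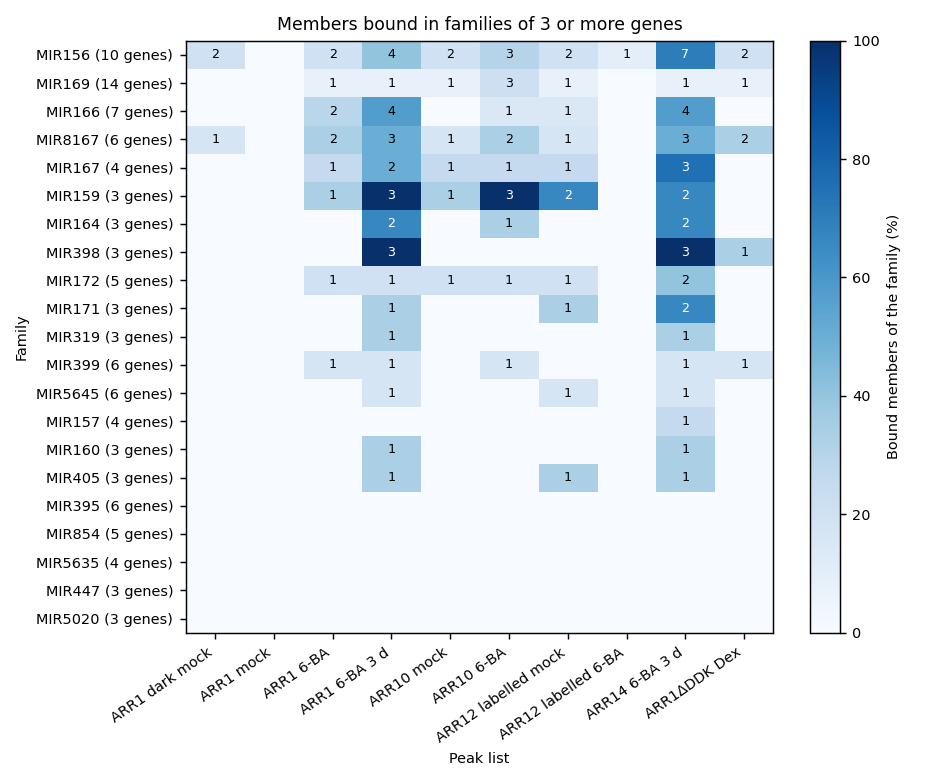
Number of bound members, printed in each cell where it is above 0, for the miRNA families of 3 or more genes (y axis, family size in brackets) in the 10 peak lists (x axis); the colour gives the percent of the family that was bound. MIR156 has the most bound members, 7 of 10 in ARR14 6-BA 3 d, MIR159 and MIR398 are complete in ARR1 6-BA 3 d, and MIR395 is empty throughout.

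Across the 28 families that are widely shared among flowering plants, 51 of 97 members were bound in at least 1 list (52.6%, 42.7% to 62.2%), and 23 of the 28 families had a bound member. Of the 229 members of other families, 61 were bound (26.6%, 21.3% to 32.7%). The share of all genes, 48.0%, lies inside the first interval and above the second. Single lists did not all have this order: it held in 7 of the 10, while in the list labelled ARR12 mock 12.4% of shared and 12.7% of other members were bound, in the list labelled ARR12 6-BA 1.03% and 1.75%, and in ARR1 mock 0 of 97 and 1 of 229. At 6 or more lists the counts were 6 of 97 and 18 of 229. The groups differ in their surroundings too: 48.5% of the other members overlapped another annotated gene, against 12.4% of the shared ones, and 50.7% against 35.1% had the start of a protein-coding gene within 1.5 kb. Among members without such a start nearby, 31 of 63 shared members (49.2%) and 23 of 113 others (20.4%) were bound. The authors kept uniquely mapped reads, so members inside repeated DNA can lose reads, and the part of this in the difference was not tested. The difference also depended on the reach of the lists: with the 792 highest peaks of each list, the share of shared members minus that of the others was -0.522 percentage points.

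Seeds gave a second way to group the members. Where the annotation notes name a guide sequence, the guides found again at the annotated mature position carried 91 different seeds. The seed GACAGAA of MIR156 and MIR157 was borne by 9 such members, of which 6 were bound in at least 1 list, and the seed CGGACCA of MIR165 and MIR166 by 9, of which 5 were bound. All 3 members with the seed UUGGAUU (MIR159), all 3 with GGAGAAG (MIR164) and all 3 with GUGUUCU (MIR398) were bound. Both members with CGCUUGG (MIR168) and both with CCAAAGG (MIR393) were bound as well. Other seeds had few or no bound members in the 10 lists: 0 of 6 with UGAAGUG (MIR395), 0 of 4 with GAGCCAA (MIR169), 0 of 3 with UGGGGAC (MIR447), 1 of 5 with GCCAAAG (MIR399) and 1 of 4 with GAAUCUU (MIR172). MIR172e, bound in 6 lists, also bears GAAUCUU. It was left out of that count because its mature sequence did not match the guide named in the notes. The share of all genes bound in at least 1 list is 48.0%, and seeds of so few members cannot be set apart from it.

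Outside the widely shared families, the members bound in most lists differed in how near they lay to the summits. MIR163 and MIR779 were the nearest gene in all of their lists, MIR414 in 8 of 9 and MIR5651 in 6 of 7, while MIR8167f and MIR8182 were so in none. MIR404 was the nearest gene in all 8 of its lists, with scores of 43.8 in ARR1 etiolated mock, 73.1 in ARR1 6-BA, 130 in ARR1 6-BA 3 d, 39.8 in ARR10 mock, 75.6 in ARR10 6-BA, 108 in the list labelled ARR12 mock, 245 in ARR14 6-BA 3 d and 90.4 in ARR1∆DDK Dex. Its summits lay 592 to 663 bp upstream of the hairpin. MIR5651 had 36.5 in ARR1 etiolated mock, 85.8 in ARR1 6-BA, 68.4 in ARR10 mock, 86.8 in ARR10 6-BA, 56.6 in the list labelled ARR12 mock, 28.0 in the list labelled ARR12 6-BA and 79.4 in ARR1∆DDK Dex, and was not bound in either 3-day list. It overlaps RDUF1, a gene induced by drought, on the opposite strand. MIR2936, the only member in ARR1 mock (25.6), lies inside SAG21, a senescence-associated gene, on the same strand, and SAG21 was the nearest gene in all 6 of its lists. MIR8182 reached the highest member score in ARR1∆DDK Dex, 113, with AT3G61260 nearer. MIR8167c, whose peaks lay closest to the zinc finger gene IDD2, had 116 in ARR1 6-BA 3 d and 237 in ARR14 6-BA 3 d.

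The distance rule gives a summit to every gene in range, and a median of 3 genes were in range of a summit at a bound member in 9 of the 10 lists. The miRNA gene was the one nearest to its best summit at 15 of 34 bound members in ARR1 6-BA (44.1%), 27 of 76 in ARR1 6-BA 3 d (35.5%), 23 of 48 in ARR10 6-BA (47.9%) and 31 of 91 in ARR14 6-BA 3 d (34.1%). Of the 24 members bound in 6 or more lists, 6 were the nearest gene in every one of their lists (MIR156c, MIR163, MIR168a, MIR172e, MIR404 and MIR779), and 15 in none. When each summit, and not the best alone, was given only to its nearest gene, 49 members (15.0%) were bound in at least 1 list, against 31.4% of all genes. In ARR1 6-BA 15 of 34 bound members stayed bound by that rule, beside 3935 of 6629 bound genes of all kinds. In ARR14 6-BA 3 d it was 31 of 91, beside 8509 of 14356. The share nearest to the best summit was not measured for all genes. By that rule 29 of the 97 shared members (29.9%) and 20 of the 229 others (8.73%) were bound.

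Summits lay around the hairpin rather than in it. Of the best summits in ARR14 6-BA 3 d, 50 of 91 were upstream of the hairpin, 41 downstream and 0 inside, and the lists with at least 20 bound members had between 48.8% and 66.7% upstream. At all bound genes of ARR14 6-BA 3 d, 41.3% were upstream, 26.5% inside and 32.1% downstream, so upstream was the more frequent side there too. At most 2 summits of a list fell inside a hairpin, while 22.6% to 46.7% of the best summits at all bound genes fell inside the gene, which is many times longer. At most single members the position was narrow: over the 24 members bound in 6 or more lists the median spread of summits between lists was 181 bp, and 15 of them stayed within 250 bp. MIR8167f, MIR5658, MIR4240 and MIR8166 were exceptions, with spreads from 1918 to 2118 bp. The spread at all genes was not measured.

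**Figure D4:**
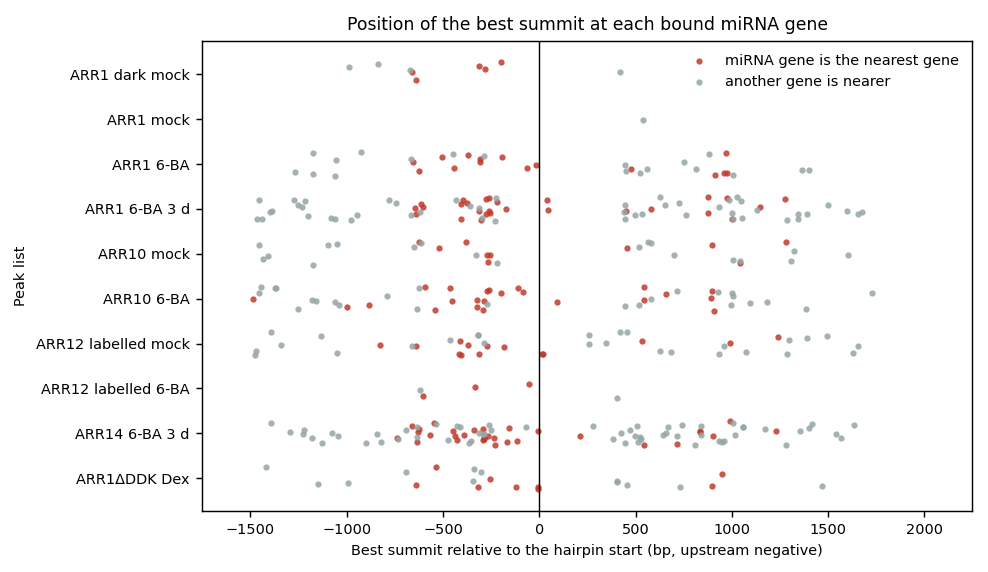
Distance in bp from the hairpin start to the best summit of each bound miRNA gene (x axis, negative upstream) in each peak list (y axis), with a random vertical offset inside each list. Red points are summits whose nearest annotated gene is the miRNA gene, grey points those with another gene nearer. Summits lie on both sides, few are within the hairpin itself, and 31 of the 91 points in ARR14 6-BA 3 d are red.

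For 20 members the annotation notes also give the primary transcript, whose start lay a median of 232 bp (51 to 615 bp) before the hairpin. At the 15 of these that were bound, 47 best summits were measured over the lists. A gene enters once for each list that holds it (MIR156c 7 times), so the 47 are not separate observations. Of these, 23 lay within 250 bp of the primary transcript start and 5 within 250 bp of the hairpin start, and the median distance was 257 bp against 370 bp. Within 500 bp the counts were 28 for the transcript start and 30 for the hairpin start, so the order depends on the window. At MIR156c the summits lay 36 to 117 bp downstream of the transcript start in 6 lists and somewhat farther in ARR1 6-BA, and at MIR156a those of 3 lists were 81 to 153 bp downstream. MIR167a had its summits upstream of the start in 5 lists, from -261 to -217 bp, and MIR166b within 15 bp of it in both 3-day lists. Other members had summits farther away. Those of MIR172e and MIR158a lay 616 to 946 bp and 640 to 1056 bp downstream of the start, each in 6 lists, and at MIR158a the arabinofuranosidase gene ASD1 was nearer. MIR171c had summits 1510 to 1626 bp downstream in 3 lists and MIR319b 1160 bp downstream in 1, while MIR160a (-552 and -649 bp) and MIR393a (-810 bp) had theirs upstream.

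**Figure D5:**
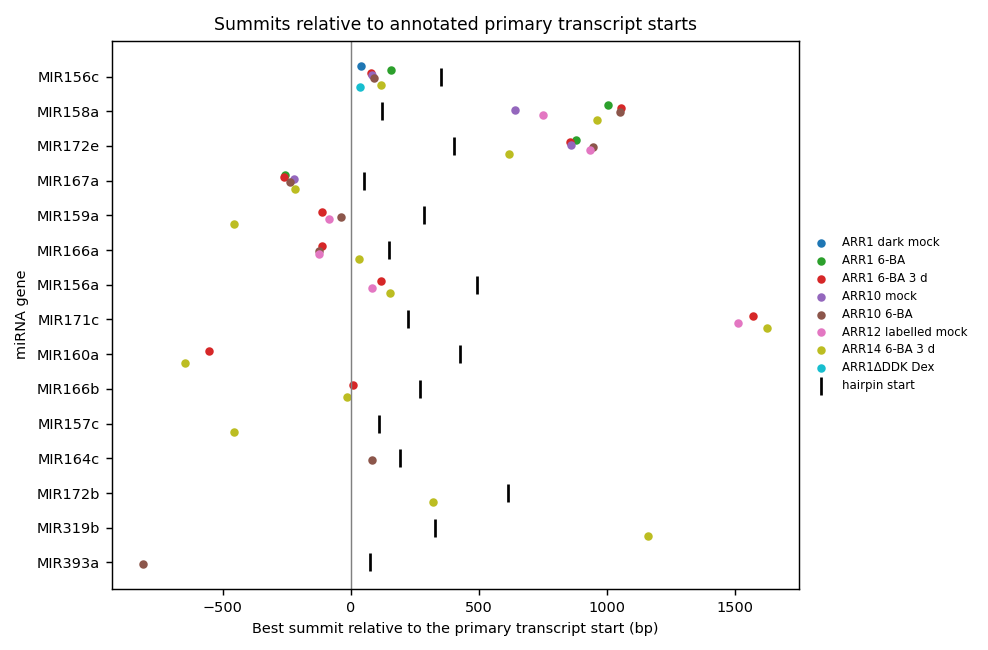
Distance in bp from the annotated start of the primary transcript to the best summit (x axis, negative upstream) at the 15 bound miRNA genes for which the start is annotated (y axis). Each point is 1 peak list, coloured by list, and the black tick is the hairpin start. The 7 points of MIR156c all lie between the start and the hairpin, the nearest 36 bp after the start.

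The sequence of 101 bp centred on the ARR1 6-BA 3 d summit is shown for 4 members that were the nearest gene to it, read from the TAIR10.1 genome on the strand of the miRNA gene. They were chosen from 7 such windows to show both cases, with and without the motif that the study names, AGATHY: the core AGAT followed by A, T or C and then by C or T, which gives 6 words. Both strands were searched, and the word AGATCT is its own reverse complement. Capitals mark these words or their reverse complements. The windows are chr4:15415745-15415845 (minus strand) for MIR156c, chr4:10578308-10578408 (plus strand) for MIR168a, chr3:8107710-8107810 (plus strand) for MIR167a and chr1:24883610-24883710 (plus strand) for MIR163.
MIR156c: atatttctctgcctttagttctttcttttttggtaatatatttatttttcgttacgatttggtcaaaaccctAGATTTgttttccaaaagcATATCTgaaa
MIR168a: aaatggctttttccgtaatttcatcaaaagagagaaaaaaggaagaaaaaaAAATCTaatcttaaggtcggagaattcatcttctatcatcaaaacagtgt
MIR167a: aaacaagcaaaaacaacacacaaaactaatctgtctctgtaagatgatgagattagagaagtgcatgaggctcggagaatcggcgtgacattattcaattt
MIR163: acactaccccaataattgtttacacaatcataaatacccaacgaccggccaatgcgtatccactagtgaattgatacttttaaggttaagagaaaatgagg

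MIR156c had 2 of the words in its window, MIR168a had 1, and MIR167a and MIR163 had 0, as did the 3 windows not printed (MIR156a, MIR166a and MIR404). Where bound members had their summits, the surrounding 200 bp held at least 1 word in 23 of 33 windows in ARR1 6-BA (69.7%, against 68.2% at all kept summits of the list), 53 of 74 in ARR1 6-BA 3 d (71.6% against 66.8%), 35 of 47 in ARR10 6-BA (74.5% against 71.8%), 77 of 88 in ARR14 6-BA 3 d (87.5% against 82.2%) and 19 of 21 in ARR1∆DDK Dex (90.5% against 83.5%). In ARR10 mock the order was the other way, with 16 of 29 windows (55.2%) against 64.7%. Because the words are short, 59.4% of all windows of 200 bp tiled over the genome hold at least 1 of them. The windows at miRNA genes thus had about the same share as the other windows of their list, and the difference was not tested.

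The comparison of mock with 4 h of 6-BA asks how added cytokinin moves binding to these genes. For ARR1 the number of bound members was 1 in mock and 34 after 6-BA, with MIR2936 in both. At the score cutoff the ARR1 mock list kept 73 of its 3324 peaks and reached 137 genes. The paper gives far more ARR1 mock targets at the same cutoff, and the source of this mismatch was not tested. The ARR1 change here is therefore not the change that the paper reports. For ARR10 the number was 29 and 48, with 28 in both. These 28 are 96.6% of the mock members and 58.3% of the 6-BA members, beside 86.0% and 65.5% for all genes. MIR5999 alone was in mock only, and the 20 members in 6-BA only included MIR393a, MIR393b, MIR159a, MIR159c, MIR166a, MIR156f, MIR164c and MIR399c. For ARR12 it was 41 in the list labelled mock and 5 in the list labelled 6-BA, a fall of 36, and with the lists exchanged a gain of 36. All 5 members of the shorter ARR12 list (MIR156h, MIR163, MIR414, MIR2936 and MIR5651) were also in the longer one, beside 79.6% of all genes of the shorter list. These counts follow the length of the lists, as the background did in the same lists: the share of all genes bound was 0.361% and 17.5% for ARR1, 16.3% and 21.4% for ARR10, and 21.1% and 2.87% for ARR12. Whether the members moved more or less than other genes cannot be told from 1 list per condition.

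The ARR10 gain depended on the cutoff. With every deposited peak, 84 members had a summit in ARR10 mock, 18 more than after 6-BA, and among the 792 highest peaks of each list there were 8 in mock, 2 more than after 6-BA. In ARR1 mock 22 members had a summit when every deposited peak was counted. MIR5651, at 13.2, was one of those not far under the cutoff, and MIR163 (8.16) and MIR404 (6.67) were lower.

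Growth for 3 days on 6-BA, set against 4 h of treatment for ARR1, kept 31 of the 34 members of the 4 h list (91.2%), and these made up 40.8% of the 3-day list. MIR169a, MIR5651 and MIR2936 were in the 4 h list alone. The 45 members in the 3-day list alone included MIR156a, MIR159a, MIR160a, MIR164a, MIR164b, MIR166a, MIR166b, MIR390a, MIR408, MIR858a and all 3 MIR398 genes. ARR14 after 3 days shared 65 members with ARR1 after 3 days, which is 85.5% of the ARR1 list and 71.4% of the ARR14 list, beside 83.3% and 75.4% for all genes. The 26 in ARR14 alone included MIR156b, MIR156g, MIR157c, MIR165a, MIR167c, MIR171a, MIR172b and MIR162a, and the 11 in ARR1 alone included MIR396b, MIR319c and MIR8166. ARR1 6-BA and ARR10 6-BA shared 31 members, 91.2% of the first and 64.6% of the second, beside 86.5% and 70.7% for all genes. ARR1∆DDK Dex shared 20 of its 21 members with ARR14 6-BA 3 d (95.2%, beside 93.3% for all genes), MIR5651 being the other. All 9 members of ARR1 etiolated mock were in ARR1 6-BA and in both ARR10 lists, where 81.0% to 88.7% of all genes of that list were found. The lists share input as their control and differ in length, so the shares describe the lists and were not tested. For all genes, the 4 h list of ARR1 was kept in the 3-day list at 90.4%, close to the 91.2% of the members. The kept genes made up 46.1% of the 3-day list, beside 40.8% for the members.

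The genes on which these miRNAs act, and those that make and load them, were looked up by lists of well-known names. Of 63 target genes, 51 were bound in at least 1 list (beside 48.0% of all genes and 54.8% of protein-coding genes) and 20 in 6 or more (beside 11.7% of all genes). Among these, SPL11 and LCR had the same scores in all 6 of their lists, so they may not be separate observations. The SPL9 scores (16.5 and 104) are also those of MIR156j, which is counted among the members. In ARR1 6-BA 26 of 63 were bound (41.3%, beside 17.5% of all genes) and in ARR14 6-BA 3 d 41 (65.1%, beside 37.9%). They include both ends of several pairs, not always in the same list: NFYA1, acted on by miR169, had scores up to 267 in ARR14 6-BA 3 d, TIR1, acted on by miR393, up to 183, TOE1, acted on by miR172, up to 254, and ARF6, acted on by miR167, up to 230. No MIR393 gene was bound in ARR14 6-BA 3 d. In ARR10 6-BA, the only list with bound MIR393 genes, TIR1 scored 67.7. SPL13A, acted on by miR156, was bound in 9 lists with scores from 19.7 to 133. Of 25 genes of miRNA production and action, 10 were bound in at least 1 list (beside 48.0% of all genes), 2 in ARR1 6-BA and 9 in ARR14 6-BA 3 d (36.0%), and AGO7, which loads miR390, was the one bound in 6 lists, with scores from 16.1 to 76.3. Neither list was tested against other genes. Protein-coding genes are longer than hairpins, and the part of length in the difference between target genes and miRNA genes was not tested.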

How the data were processed

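The data were 10 lists of ChIP-seq peaks, 1 per condition. Of the 14 labelled samples, 2 control libraries (input and IgG) and 2 RNA-seq records that the labels place in no single group were not used here. Columns belonging to other series numbered 0.

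The authors mapped reads with Bowtie 0.12.7 per the labels, keeping uniquely placed reads, used MACS2 2.0.10 with input as control to call peaks, and merged 2 or more biological replicates by their irreproducible discovery rate. The build named in the labels is TAIR10. Each deposited list gives the −log10 p-value of a peak, a ratio (the fold enrichment against input), a score that is 10 times the −log10 p-value, and the summit offset. Values are the authors' own and carry no replicate. Read depth is unknown, so precision is limited to the 95% Wilson intervals, which cover counting error only.

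Peaks of −log10 p-value 16 or more were kept and their summits assigned to every nuclear gene of the RefSeq TAIR10.1 annotation within 1.5 kb. The best peak of a gene gave its score, its rank among bound genes and its position by strand. Mature sequences and summit windows came from the RefSeq TAIR10.1 genome, whose nuclear chromosomes have the names and lengths of TAIR10. Assignment and motif search were tested on simulated data. Results are counts and shares beside the same share over all genes, with no test. As alternatives, a cutoff of 30, no cutoff (every deposited peak), a distance of 1 kb, windows around the annotated start, the nearest gene only, the 792 top peaks of each list, peaks more than 50 kb from the tagged genes, and the ARR12 lists exchanged were tried. For the shared families and the mock to 6-BA change, all of these but the exchange were added after seeing the data.

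Members named are those bound in at least 6 of the 10 lists, the top 3 by score in each list, and bound members of families with at least 3 bound in 1 list, together with the gene nearest to a printed peak. Other names (among them MIR172b, MIR393a, MIR396b, MIR399c and the members listed as unique to a list) and all values given outside that rule were chosen after their values were seen. The members and all gene lists were chosen with earlier results of these data known. The software was Matplotlib 3.10.9, SciPy 1.17.1, pandas 2.3.3, NumPy 2.4.6 and Python 3.11.15.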

Additional observations from a re-analysis of the deposited data

Results flagged for a closer look

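The difference between mock and 4 h of 6-BA had opposite signs in the tagged lines. The count of bound miRNA genes was higher after 6-BA by 33 for ARR1 and by 19 for ARR10, and by the labels it differed by -36 for ARR12. These are single lists, so the difference between the lines was not tested. The ARR1 mock list at this cutoff also reached far fewer genes than the paper reports. With the ARR12 lists exchanged, the ARR12 difference was 36.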

How the results depend on the processing

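No paired analysis was possible because the replicates are merged into 1 list per condition, and none could be left out. Of 132 alternative values, 79 stayed within 1.5 times the reported count or within its counting interval, and 4 changed sign. Summits within 1 kb, windows around the start and peaks away from the tagged genes moved no count of bound members by more than 1.5 times, although with windows around the start the share in ARR1 mock (0.307%) was above that of all genes (0.222%). Exchanging the ARR12 lists turned -36 into 36. With every deposited peak, ARR1 mock held 22 members, ARR1 6-BA 57, ARR10 mock 84 and the list labelled ARR12 6-BA 20, and the ARR10 change became -18. With a minimum of 30 the counts were 3 (ARR1 etiolated mock), 0 (ARR1 mock), 13 (ARR1 6-BA), 42 (ARR1 6-BA 3 d), 8 (ARR10 mock), 19 (ARR10 6-BA), 15 (labelled ARR12 mock) and 0 (labelled ARR12 6-BA), the changes were 13 for ARR1, 11 for ARR10 and -15 for ARR12, and the share of upstream summits was 100% in ARR1 etiolated mock, 84.6% in ARR1 6-BA, 75.0% in ARR10 mock and 73.7% in ARR10 6-BA. With the nearest gene only, the counts in the order of the bar chart were 5, 0, 15, 28, 11, 23, 15, 3, 31 and 9, with 49 in any list, and the changes were 15, 12 and -12. The upstream share was then 100% in ARR1 etiolated mock and in labelled ARR12 6-BA, 66.7% in labelled ARR12 mock and 74.2% in ARR14 6-BA 3 d. With the 792 top peaks, counts were 5 in ARR1 etiolated mock, ARR1 mock, ARR1 6-BA 3 d and ARR1∆DDK Dex, 6 in both 4 h 6-BA lists of ARR1 and ARR10, 8 in ARR10 mock, 9 in labelled ARR12 mock and 7 in ARR14 6-BA 3 d, with 18 in any list, and the changes were 1, -2 and -4. The shared families minus the others became -0.522 percentage points, from 25.9. By construction a minimum of 30 and the nearest gene admit fewer peaks or assignments, and the 792 top peaks admit fewer in 8 lists and more in ARR1 mock. The cause of the sign changes was not tested. Shorter lists limit what can be seen: a member absent from ARR1 mock was not detected at that reach, not shown to be free of ARR1.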
